A study of Mus musculus with 4 samples.

Results

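The miR-181 family is described here in the liver of WT and *Clock* mutant mice. Its members on the array were mmu-miR-181a, mmu-miR-181b, mmu-miR-181c and mmu-miR-181d (below without the mouse prefix mmu), taken by their names in the scanner output, so that they made up 4 of the 611 mouse miRNAs measured. The names of their star strands, the opposite arms of the same hairpins, were left out of the family and are given separately. Male mice aged 6 to 8 weeks, either WT or labelled as *Clock* mutant (ClockΔ19, a dominant negative form of the core clock gene *Clock*), were housed 1 per cage under 12 h of light and 12 h of dark for 2 weeks and killed at ZT2 or ZT14, which is 2 h or 14 h after lights on. The labels give no zygosity and no background strain. One Agilent one-colour miRNA array was run for each of the 4 conditions on RNA pooled from 3 livers, so no condition had a replicate, no difference between 2 arrays could be tested, and the spread given below is that of repeated spots on 1 array, which measures neither mice nor RNA preparations.

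The miR-181 family is a broadly conserved group of miRNAs, each of which guides the Argonaute protein to messenger RNAs through the seed near its 5′ end. Members that share a seed are expected to share many targets. The family is best known from lymphocytes, where miR-181a tunes T cell receptor signalling, and it has also been studied in vascular endothelium and in liver tumours.

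The mature sequences are shown because the members differ by few bases, which bears on how well array probes can tell them apart. They were taken from RefSeq for GRCm38.p6, where all 4 names matched after adding the arm suffix -5p, and the capitals mark the seed, bases 2 to 8 from the 5′ end.
miR-181a: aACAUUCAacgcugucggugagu
miR-181b: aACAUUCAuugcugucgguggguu
miR-181c: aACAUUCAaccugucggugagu
miR-181d: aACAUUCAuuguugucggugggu

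All 4 members carried the seed ACAUUCA, and of the 1679 mature names in the RefSeq table these 4 were the ones that did. The closest pair was miR-181a and miR-181c, which were 1 edit apart, a base missing in miR-181c. The next was miR-181b and miR-181d, 2 edits apart, with the substitution C12U counted from the 5′ end of miR-181b and a difference of 1 base in length. The other pairs were 4 or 5 edits apart. The probe sequences are not given in the files used here, so cross-hybridization between members could not be measured, and each level below is that of a probe set named for a member.

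The 4 mature miRNAs come from 6 hairpin genes in 3 pairs. Mature miR-181a lay at chr1:137966468-137966490 in Mir181a-1 and at chr2:38852741-38852763 in Mir181a-2, on the plus strand in both. Mature miR-181b lay downstream of each, at chr1:137966650-137966673 in Mir181b-1 and chr2:38853845-38853868 in Mir181b-2, also on the plus strand. The pair on chromosome 8 was on the minus strand, with miR-181c at chr8:84178924-84178945 and miR-181d at chr8:84178759-84178781. The hairpins of a pair were 97, 1019 and 85 bases apart on chromosomes 1, 2 and 8. The pair on chromosome 2 lay within the bounds of Nr6a1, an orphan nuclear receptor gene on the opposite strand, and of the long non-coding RNA Nr6a1os on the same strand. The array reads the mature sequence, so the 2 gene copies of miR-181a and of miR-181b cannot be told apart.

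Across the 4 arrays, 138 to 193 mouse miRNAs were called detected. In these files a miRNA carried that call where the total signal of at least 1 of its probes was at least 3 times its error. The hepatocyte miRNA miR-122 was detected on every array, at 29413 to 55936 units of processed intensity, which is fluorescence after background subtraction. Negative control spots, which match no miRNA, averaged 5.48 and 5.24 units on the WT and *Clock* mutant arrays at ZT2 and 8.32 and 9.72 units at ZT14.

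The family was close to background in these livers. Of its 4 members, miR-181a was called detected on 1 array, WT at ZT2, and miR-181b, miR-181c and miR-181d on none. The mean signal of miR-181a was 7.22 units on the WT array at ZT2, 2.77 on the *Clock* mutant array at ZT2, 2.98 on the WT array at ZT14 and 7.30 on the *Clock* mutant array at ZT14. Its standard errors over 18 to 20 spots were 0.887, 0.628, 1.02 and 0.934 units in the same order. By mean signal, the WT array at ZT2 and the *Clock* mutant array at ZT14 were thus the high pair for miR-181a, and the other arrays the low pair. Within each pair the arrays lay 0.0837 and 0.209 units apart, within the spot error. The gap between the pairs was 4.23 units, or 3.13 times the combined standard error of the spots. The pairs were formed after the values were seen. Here and below, the spot error leaves out offsets between arrays, whose negative controls averaged from 5.24 to 9.72 units. Multiples of it therefore test no difference between conditions. As a share of the 75th percentile of the miRNAs detected on all arrays, miR-181a stood at 1.35%, 0.551%, 0.878% and 1.36% in the order of the arrays given first. Less the mean of the negative controls on the same array, it read 1.74, −2.47, −5.34 and −2.42 units in that order. It thus lay above the controls for WT at ZT2 alone, and by this measure the *Clock* mutant arrays were nearly level.

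The level of miR-181a came from 1 of its 2 probes. The brighter probe, chosen as the one with the higher mean over all arrays, averaged 14.5 units on the WT array at ZT2, with an SD of 4.12 over 8 spots. It averaged 8.17 units on the *Clock* mutant array at ZT2, with an SD of 3.48 over 10 spots. At ZT14 it averaged 6.38 units on the WT array, with an SD of 3.63 over 8 spots, and 13.7 units on the *Clock* mutant array, with an SD of 4.22 over 10 spots. On this probe the same arrays were high, with a gap of 5.50 units between the pairs, 3.18 times the combined standard error of the spots, and gaps of 0.782 and 1.79 units within the high and the low pair, or 0.396 and 1.06 times that error. With flagged spots kept, the probe averaged 16.5 units for WT at ZT2 and 9.85 for WT at ZT14, which left a gap of 3.83 units between the pairs. The dimmer probe averaged −0.0201, −2.62, −0.413 and 0.930 units in the order of the arrays given first, so it read at or below its local background on 3 arrays and under 1 unit on the other. Spots well above background were 2 for WT at ZT2 and 1 for WT at ZT14, all on the brighter probe and all flagged as outliers, so none entered the means. Of the 76 unflagged spots, 34 or 44.7% were positive and significant by the scanner's own test. That share was 9.52% to 15.6% over the spots of undetected mouse miRNAs and 50.4% to 83.8% over negative control spots.

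**Figure D1:**
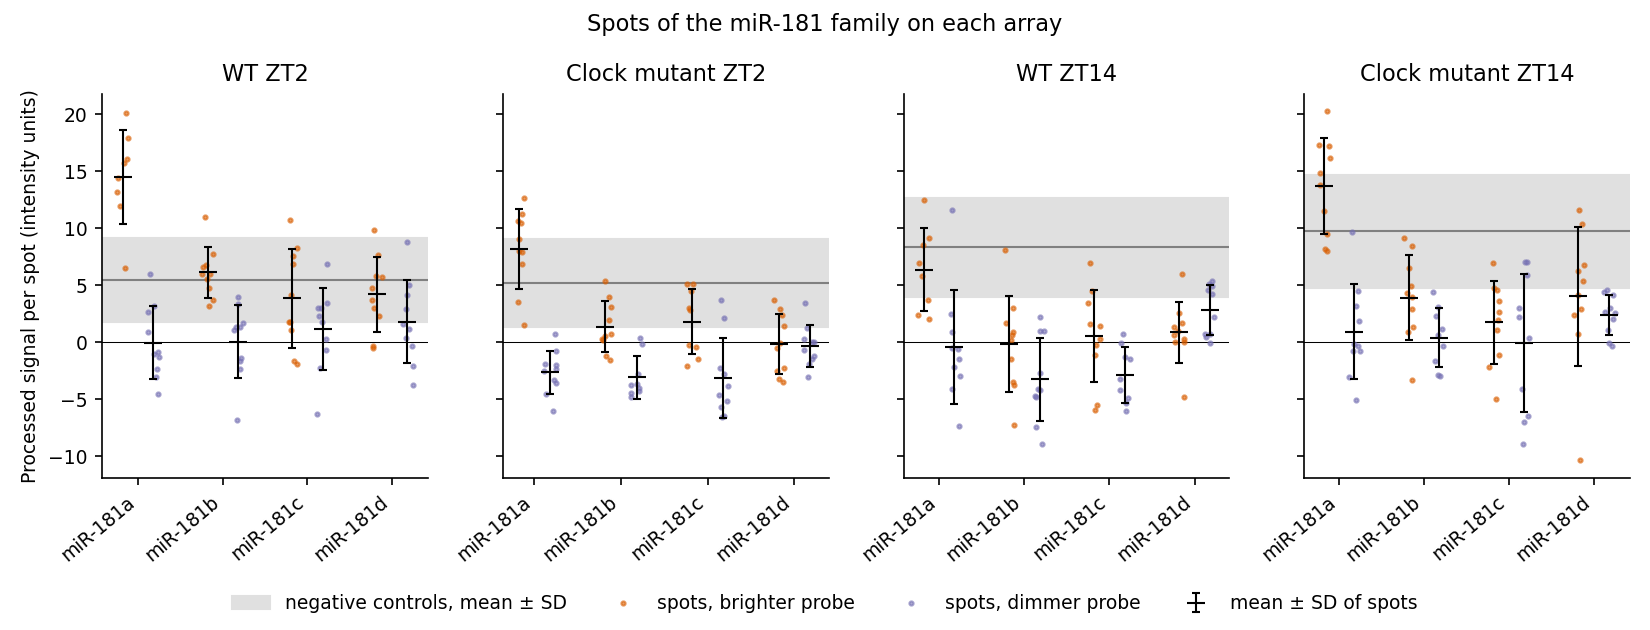
Processed signal of every unflagged spot (y axis, intensity units) for the brighter (orange) and dimmer (purple) probe of each member, with 1 panel per array, black bars for the mean and SD of the spots, and a grey band for the mean and SD of the negative control spots. The brighter probe of miR-181a stands above the band's mean on 3 arrays, at 14.5, 8.17 and 13.7 units, and below it on the WT array at ZT14, at 6.38.

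The detection call of miR-181a separated arrays whose signals hardly differed. The total signal of its brighter probe was 9.81 units with an error of 3.14 on the WT array at ZT2, a ratio of 3.13. On the *Clock* mutant array at ZT14 it was 9.73 units with an error of 3.91, a ratio of 2.49. The total that 3 times the error asked for was 9.41 units on the first array and 11.7 on the second, so nearly equal totals fell on opposite sides. On the *Clock* mutant array at ZT2 and the WT array at ZT14 the ratios were 1.55 and 1.31. Set against the brightest of the 7 sets of negative controls, the brighter probe was 6.20 units higher on the WT array at ZT2. On the *Clock* mutant array at ZT2, the WT array at ZT14 and the *Clock* mutant array at ZT14 the same difference, probe minus controls, was −0.531, −6.39 and −0.328 units. A call that asked for 50% of all spots to be positive and significant took in miR-181a for WT at ZT2 and for the *Clock* mutant at ZT14, whereas calls based on spots well above background or on the negative controls took in no member on any array.

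**Figure D2:**
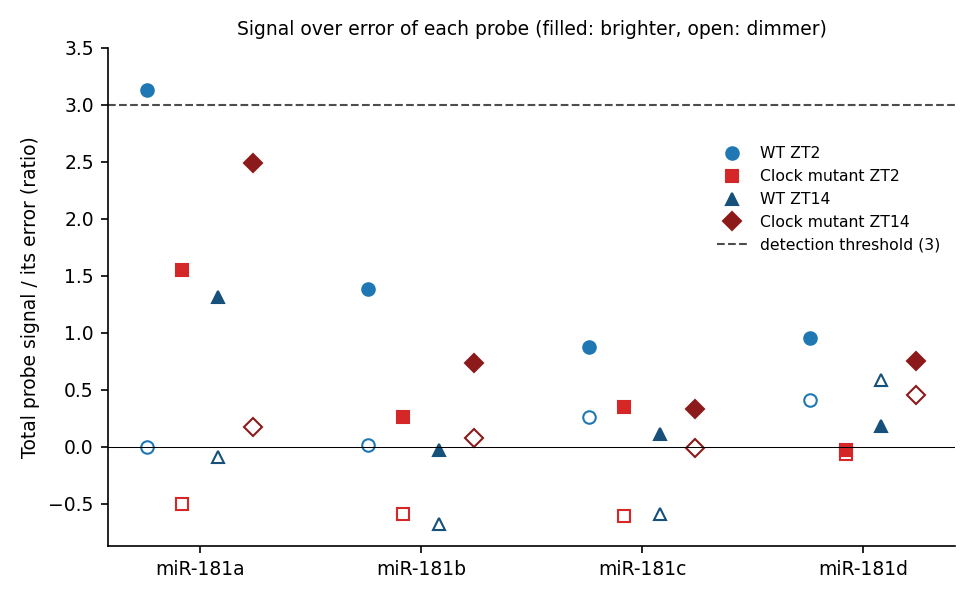
Total signal divided by its error (y axis, ratio) for both probes of each member, with filled symbols for the brighter and open symbols for the dimmer probe, and colour and shape for the 4 arrays. The dashed line is the ratio of 3 at which a miRNA was called detected, and miR-181a on the WT array at ZT2, at 3.13, is the 1 point above it.

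The partner of miR-181a in both of its clusters, miR-181b, averaged 3.10 units on the WT array at ZT2, −0.844 on the *Clock* mutant array at ZT2, −1.69 on the WT array at ZT14 and 2.17 on the *Clock* mutant array at ZT14. Its best ratio of signal to error was 1.38, on the WT array at ZT2, where its brighter probe averaged 6.12 units. For miR-181c, which is nearest to miR-181a in sequence, the means were 2.51, −0.657, −1.15 and 0.843 units in the same order, and its best ratio was 0.879. For miR-181d, the second member of the cluster on chromosome 8, they were 3.002, −0.233, 1.86 and 3.21 units, and its best ratio was 0.955. All of these means over both probes lay below the mean of the negative controls on the same array, while the brighter probe of miR-181b alone was 0.642 units above it on the WT array at ZT2. Of their spots over all arrays, 13 of 78 for miR-181b, 10 of 78 for miR-181c and 16 of 80 for miR-181d were positive and significant, or 16.7%, 12.8% and 20.0%. The shares differed between arrays. On the WT array at ZT2 they were 40%, 25% and 35%, above the 11.2% of undetected mouse miRNAs there but below the 64.4% of negative control spots. On the *Clock* mutant array at ZT2 they were 5.26%, 0% and 0%, below the 9.52% of undetected ones and the 50.4% of negative control spots. At ZT14 the *Clock* mutant array had the higher shares. They were 5%, 5.26% and 20% for WT, against 13.7% of undetected ones and 80.1% of negative control spots. For the mutant at ZT14 they were 15.8%, 20% and 25%, against 15.6% and 83.8%.

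For each of the 4 members the WT array at ZT2 and the *Clock* mutant array at ZT14 gave the higher mean signals over both probes. For miR-181b the gap between this pair and the other arrays was 3.01 units, 3.45 times the combined standard error of the spots. For miR-181c and miR-181d the gap was 1.12 and 1.21 times that error. On single probes the order failed for the brighter probe of miR-181c and the dimmer probe of miR-181d, and held for the others. Less the negative control mean of the same array, it failed for miR-181b, miR-181c and miR-181d. On the *Clock* mutant arrays they then read −6.09, −5.90 and −5.48 units at ZT2 and −7.55, −8.88 and −6.51 at ZT14. This order was looked at after the values were seen. Among the 416 mouse miRNAs detected on no array, 127, or 30.5%, had the same arrays as their highest. The members may share signal through their probes, so they are not separate observations of that order. The star strands miR-181a-1* and miR-181a-2* were called detected on no array, with signals from −4.11 to 0.265 units.

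At ZT2 the *Clock* mutant was compared with WT to ask whether the family depended on the genotype near the start of the light phase. Since miR-181a was detected on 1 of the 2 arrays, its ratio was taken by a rule for bounds. The WT signal was set against whichever was larger on the *Clock* mutant array, the signal of miR-181a itself or the lowest signal of any detected miRNA, each divided by the 75th percentile of its array. A log2 value that came out in the other direction was set to 0. The rule could thus not place a miRNA lower on the only array where it was detected. By this rule miR-181a was 2.44-fold lower in the *Clock* mutant, a log2 value of −1.29 with a standard error of 0.37 from the spots. This was the ratio of its own mean signals over both probes, and since the dimmer probe read below background it is no firm lower limit. The brighter probe alone, a setting added after the data were seen, gave 1.66-fold, with spots from 6.502 to 20.1 units in WT and from 1.49 to 12.6 in the mutant, which overlapped. By the rule for bounds miR-181a was 1 of 16 mouse miRNAs at least 2-fold lower, or 8.25% of the 194 detected on either array, and 0 were at least 2-fold higher. The other 3 members were undetected on both arrays and have no ratio. The log2 value of miR-181a was −0.98, short of 2-fold, with the 75th percentile of all mouse miRNAs, −0.37 with the negative control mean as the floor, −0.015 after normexp background correction with an offset of 50, and 0 in the authors' log2 values with bounds.

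At ZT14 no member was detected in either genotype, so none has a ratio of *Clock* mutant to WT. The signal of miR-181a was then the higher in the *Clock* mutant, at 7.30 against 2.98 units, and the spots of both arrays overlapped, as they did at ZT2. Among the 157 miRNAs detected on either array, 21 or 13.4% were at least 2-fold lower in the mutant and 0 were at least 2-fold higher. This count holds both measured ratios and bounds, and no alternative setting is given for it. The 75th percentile used for scaling was 340 units on the WT array at ZT14 and 536 on the *Clock* mutant array.

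Over time within WT, the same rule gave 1.52-fold less miR-181a at ZT14 than at ZT2, a log2 value of −0.60 with a standard error of 0.52 from the spots, and the brighter probe alone gave 1.44-fold. In that comparison 13 of 194 miRNAs, or 6.7%, were at least 2-fold lower at ZT14 and 2, or 1.03%, were at least 2-fold higher. Within the *Clock* mutant no member was detected at either time, and miR-181a read 2.77 units at ZT2 and 7.30 at ZT14. Without scaling the log2 value in WT was −1.26, it was −0.15 with flagged spots kept, −0.30 with the 75th percentile of all mouse miRNAs and −0.38 with the median, and it was 0 with normexp, with the negative control mean as the floor and in the authors' values with bounds. These values of 0 were set by the rule for bounds and do not measure the absence of a change.

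Genotype and time were also fitted over all 4 arrays with limma, additively, which left 1 residual degree of freedom. The fit over the 123 miRNAs detected on every array held 0 members and called 0 miRNAs for genotype (0% of those tested, 10 at an unadjusted p under 0.05, smallest adjusted p = 0.22) and 0 for time (0%, 12 at an unadjusted p under 0.05, smallest adjusted p = 0.195). With normexp values of all 611 mouse miRNAs, the log2 difference of *Clock* mutant minus WT was −0.19 for miR-181a, −0.21 for miR-181b, −0.19 for miR-181c and −0.22 for miR-181d, each with a standard error of 0.22 and a limma adjusted p of 0.585. The median over all 611 was −0.19. The difference of ZT14 minus ZT2 was 0.28, 0.25, 0.27 and 0.31 for the same members, with limma adjusted p from 0.324 to 0.363, and the median over all 611 was 0.30. These values carry little on the members themselves, since most of the 611 were undetected and the offset brings all signals near background to like values, and additive terms cannot show a pattern in which WT at ZT2 and the *Clock* mutant at ZT14 are both high. The 95% interval of miR-181a reached from −0.63 to 0.25 for genotype and from −0.16 to 0.72 for time. The fit gave every member the same standard error in both terms, so this interval does not measure the precision of miR-181a alone. The fit called 0 of 611 miRNAs in either term, with 13 and 10 at an unadjusted p under 0.05. In the fit that raised every signal to at least the lowest detected one, the difference of ZT14 minus ZT2 was 0.35 for miR-181a and 0.33 for miR-181d but turned to −0.26 for miR-181b and −0.16 for miR-181c, around a median of 0 over all 611, with a limma adjusted p of 1 for each. There miR-181b stood at the floor on 2 arrays, miR-181c on 3 and miR-181d on 1, so the values of all of these partly reflect the floor. In that fit the 95% interval of miR-181a reached from −4.78 to 4.13 for genotype and from −4.11 to 4.80 for time.

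**Figure D3:**
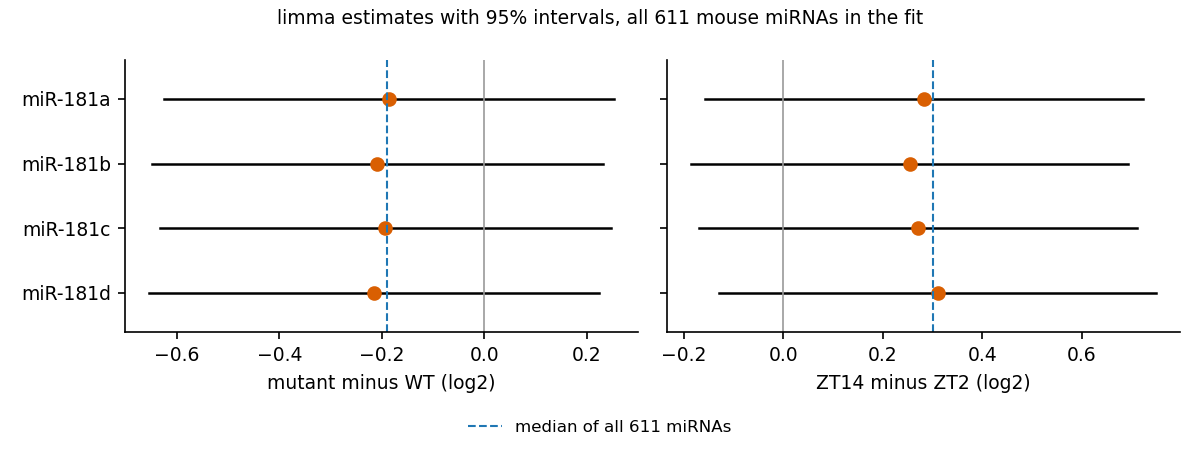
Log2 difference of each member for genotype (left, *Clock* mutant minus WT) and time (right, ZT14 minus ZT2) from the limma fit to normexp values of all 611 mouse miRNAs, with 95% intervals as lines. The dashed line is the median over all 611, at −0.19 and 0.30, and every interval spans 0.

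The miRNAs whose detection was most like that of miR-181a were detected on the WT array at ZT2 alone. There were 28 others, and among these 29 the best ratio of signal to error ran from 3.12 to 9.73 with a median of 3.62. miR-181a ranked 28th, and 11 of the 29 were at least 2-fold lower in the *Clock* mutant at ZT2 by the same rule. Over the 194 miRNAs detected on either array that count was 16, or 8.25%. Picked as detected on the WT array at ZT2 alone, the 29 could not come out higher in the mutant by that rule. Over the 1 array where miR-181a was detected, the 5 nearest to it in scaled signal were miR-466h, miR-125a-3p, miR-29b*, miR-346 and miR-141, at 7.78, 8.01, 6.43, 8.37 and 9.01 units. On the *Clock* mutant array at ZT14, where none of them was called detected, they read −2.53, 5.09, 7.51, −3.98 and 0.897 units, against 7.30 for miR-181a.

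Because the family is known from lymphocytes, the levels of 8 miRNAs of white blood cells are set beside it. Their summed signal was 831 units on the WT array at ZT2, 500.4 on the *Clock* mutant array at ZT2, 283 on the WT array at ZT14 and 476 on the *Clock* mutant array at ZT14, or 155%, 99.4%, 83.2% and 88.9% of the 75th percentile. Detected on all arrays were miR-142-3p, which blood cells make, at 419, 249, 125 and 224 units, and miR-146a, miR-223 and miR-342-3p. On the WT array at ZT2 alone miR-142-5p was detected. The lymphocyte miRNAs miR-150 and miR-155 and also miR-146b were detected on no array. At ZT2 the 5 of the list with a ratio had a median log2 of −0.66, against −0.15 over the 194 miRNAs, and 1 of the 5 was at least 2-fold lower. The muscle miRNAs miR-1, miR-133a and miR-133b likewise had a detection call for WT at ZT2 alone, where the 4 muscle miRNAs summed to 167 units, against −2.63 to 1.57 on the other arrays, and miR-206 was detected on none. In bulk liver, fewer cells of a type and less RNA per cell cannot be told apart. The part of white blood cells and of muscle in the level of miR-181a was not tested.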

How the data were processed

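Liver RNA of 3 mice per condition was pooled and hybridized to 1 Agilent miRNA array per condition, all 4 on the same slide. The labels describe Cy3 labelling with a kit for linear amplification of cRNA. The scanner output deposited by the authors, made with Agilent Feature Extraction 10.7.1.1, holds a background-subtracted intensity per spot, flags, and a detection call per miRNA. The deposited log2 table of the authors equals the log2 of detected probe totals less a number for each array, with 0.1 for undetected miRNAs, and of its making the methods state Agi4x44PreProcess as the package, with no normalization spelled out.

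Here the intensity was averaged over unflagged spots of a probe, then over the probes of a miRNA, and scaled to each array's 75th percentile, computed from the 123 mouse miRNAs that every array detected. A miRNA detected on 1 of 2 arrays got a bound, set to no change where it came out lower on the array that detected it. The threshold was 2-fold. Limma 3.58.1 in R 4.3.3 fitted genotype and time with Benjamini-Hochberg adjustment and was tested on simulated data. The rest ran in Python 3.11.15 (pandas 2.3.3, numpy 2.4.6, matplotlib 3.10.9). The number of arrays limits the precision. Alternatives were other scalings, normexp, keeping outlier spots, other detection calls, a floor at the negative controls, 1.5-fold, and the authors' table. The members, the lists of white blood cell, hepatocyte, endothelial, muscle and red blood cell miRNAs and the tests were chosen with earlier results of these data known. The miRNAs named are the members, their star strands, the 5 with the same detection calls and the nearest signal, and those lists. The hepatocyte miRNAs (miR-122, miR-192 and miR-194) and the endothelial ones (miR-126-3p and miR-126-5p) were detected on all arrays. Of the red blood cell miRNAs, miR-451 and miR-144 were detected on all arrays and miR-486 on the *Clock* mutant array at ZT2, and their sum was 1793, 2989, 1006 and 1371 units on WT at ZT2, the mutant at ZT2, WT at ZT14 and the mutant at ZT14. The qRT-PCR and target predictions are not analysed here.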

Additional observations from a re-analysis of the deposited data

Results flagged for a closer look

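The scanner output gives a summed signal per miRNA beside the probe totals, which entered no comparison. For miR-181a it was 1075 units on the WT array at ZT2, although its probe totals summed to 9.79 units there, and it was 0.1, the value given to undetected miRNAs, on the other 3 arrays. On the WT array at ZT2 the summed signal differed by more than 1% from the probe totals for 52 of 193 detected miRNAs, and all 52 had a probe whose signal was under 3 times its error. For the other 141 it equalled the sum, and 0 of these had such a probe.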

How the results depend on the processing

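At 1 array per condition, signals near the negative controls limit every statement on the family. The call of miR-181a on the WT array at ZT2 was lost, leaving 0 members, with spots well above background and with the negative control mean plus 3 SD, and the *Clock* mutant array at ZT14 gained 1 member when 50% of spots had to be positive and significant. The bound of miR-181a at ZT2 (−1.29) was −0.015 with normexp, 0 in the authors' table with bounds, −0.37 with the negative control floor and, with the brighter probe alone, −0.73. A bound of 0, here or over time, was set by the rule and does not measure the absence of a change. Taking the authors' values as they stand, which like the brighter probe was tried only after the data had been seen, gave −5.70. In WT over time (−0.60) it was −1.26 without scaling, 0 with normexp, with the authors' table with bounds and with the floor, and it reversed to 0.89 in the authors' values as they stand, where undetected miRNAs of the ZT14 array are at 0. In limma over all mouse miRNAs, the time difference of miR-181b and miR-181c turned from 0.25 and 0.27 with normexp to −0.26 and −0.16 with a floor at the lowest detected signal. These members stood at that floor on 2 and 3 arrays. The other alternatives moved both values by less than their standard error from the spots, but at ZT2 the 75th percentile of all mouse miRNAs gave −0.98, which is short of 2-fold. At ZT2 the count of miRNAs 2-fold or more below WT in the mutant (16) was 10 with the 75th percentile of all mouse miRNAs, 1 with normexp, 9 in the authors' table with bounds, 4 among miRNAs detected on both arrays and 34 at 1.5-fold. The count lower at ZT14 in WT (13) was 59 without scaling, 6 with the 75th percentile of all mouse miRNAs, 6 with the median, 0 with normexp, 0 in the authors' table, 8 with the floor, 4 among miRNAs detected on both arrays and 41 at 1.5-fold. Without scaling limma called 5 of 123 miRNAs for time, or 4.07%, in a fit that held no member and so could call none. The causes were not tested. Leaving out an array gives limma no residual degree of freedom. No paired analysis was possible because there was 1 array for each condition.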
